A study of Homo sapiens with 3 samples.

Results

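The results concern 8 very large human genes that lie at common fragile sites, FHIT, WWOX, MACROD2, IMMP2L, LRP1B, CSMD1, DLG2 and CNTNAP2, and the replication origin calls that fall within them. They were chosen by name and by their hg19 coordinates, and every origin call of 3 replicates lying within these coordinates was taken, in all 209 of 183459 common regions, the unit defined below. Short nascent strand sequencing (SNS-seq) maps replication start sites by isolating short, RNA-primed new DNA strands that resist lambda exonuclease. The material was untreated HCT116, an established colorectal carcinoma cell line, as 3 samples of 1 group, so that the comparisons are between places in the genome and not between treatments. The study describes the 3 as repeat experiments. The labels do not say whether the replicates came from separate cultures, and the spread between them may be technical.

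Common fragile sites are stretches of the genome that break when DNA synthesis is slowed, and many of them lie inside the longest human genes. They tend to replicate late in S phase, and a scarcity of initiation events inside them is one of the properties for which they are known.

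The 8 genes span between 0.899 Mb (IMMP2L) and 2.30 Mb (CNTNAP2) and together 14.0 Mb on 7 chromosomes. Each replicate came with broad intervals from the caller EPIC2 and with point summits from the caller MACS2. Where an EPIC2 region contained a summit from the same replicate, it is called a common region here. The numbers of common regions genome-wide were 101664, 25282 and 56513 for replicates 1, 2 and 3. The lists hold calls and no reads, so the read depth behind each replicate is unknown and copy number and coverage were not analysed here.

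The fragile-site genes held fewer calls than their length would give. They made up 0.486% of the genome span with calls, but only 0.138%, 0.111% and 0.0725% of the common regions of replicates 1, 2 and 3. Summits were less depleted, with 0.277%, 0.240% and 0.240% of all summits in the genes. In numbers, the genes held 140, 28 and 41 common regions and 604, 151 and 388 summits.

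Density was expressed as a ratio, calls per Mb in the gene over calls per Mb in the rest of its chromosome, counting 1 Mb windows that hold a call. The median common region ratio over the 8 genes was 0.207, 0.147 and 0.129 in replicates 1, 2 and 3, a mean of 0.161 ± 0.0410 (SD, n = 3). All 24 combinations of gene and replicate lay below 1, and in 22 of them the whole 95% interval (exact, conditional on the sum of both counts, for counting error only) did so too. The exceptions were FHIT and WWOX in replicate 2. An exact two-sided sign-flip test over 3 replicates gave p = 0.25, the smallest value the design allows, so no call rests on it. All 8 genes had a mean ratio below 0.5, whereas 32.9% of 709 windows of the same lengths, tiled along the same chromosomes, did so. Chromosome 7 was tiled for both IMMP2L (171 windows) and CNTNAP2 (65 windows), and the windows for IMMP2L include parts of CNTNAP2.

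**Figure D1:**
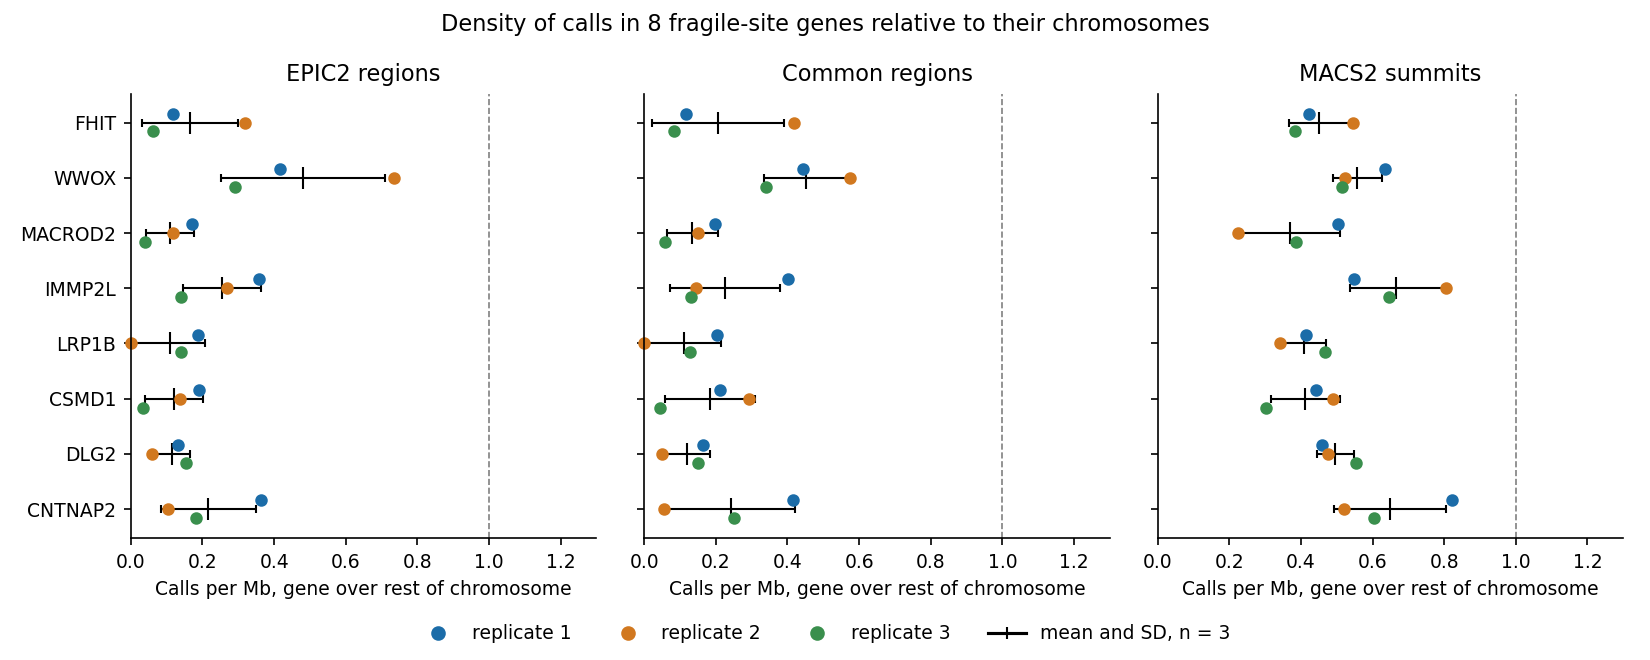
Density of EPIC2 regions, common regions and MACS2 summits in each gene divided by the density in the rest of its chromosome (x axis, no unit), with 1 point per replicate, a vertical bar for the mean and a line for the SD (n = 3). Common region ratios lie between 0 and 0.575, all left of the dashed line at 1, and summit ratios lie between 0.225 and 0.822.

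FHIT encodes a diadenosine triphosphate hydrolase and is regarded as a tumour suppressor. It held 5, 4 and 2 common regions in replicates 1, 2 and 3, or 3.33, 2.66 and 1.33 per Mb. The rest of chromosome 3 held 28.7, 6.35 and 16.0 per Mb, which gave ratios of 0.116, 0.419 and 0.0832. Replicate 2 was thus well above the other replicates, and the mean of 0.206 ± 0.185 (SD, n = 3) has an SD nearly as large as itself.

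WWOX, a WW domain oxidoreductase, had the highest mean ratio of the genes. It held 27, 9 and 11 common regions, or 24.3, 8.08 and 9.88 per Mb, against 54.9, 14.1 and 29.1 per Mb on the rest of chromosome 16. The ratios were 0.442, 0.575 and 0.339, with a mean of 0.452 ± 0.118 (SD, n = 3). Its replicates thus lay closer together, relative to their mean, than those of any other of the genes.

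MACROD2 removes ADP-ribose from proteins. It held 20, 4 and 3 common regions, and the ratios of 0.196, 0.149 and 0.0584 gave a mean of 0.135 ± 0.0701 (SD, n = 3). IMMP2L is a subunit of a peptidase in the inner mitochondrial membrane and the shortest of the 8 genes. With 12, 1 and 2 common regions its ratios were 0.402, 0.145 and 0.129, so that replicate 1 stood well above the other replicates.

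LRP1B belongs to the family of low density lipoprotein receptors. It held 12 common regions in replicate 1, 4 in replicate 3 and none in replicate 2, where 1686 lay on the rest of chromosome 2. The ratios were 0.204, 0 and 0.129, and a count of 0 allows a ratio of up to 0.225 in replicate 2 (3 counts), or up to 0.277 by the two-sided exact interval used for the other values. CSMD1, a large membrane protein linked to complement control, held 19, 8 and 3 common regions, with ratios of 0.211, 0.292 and 0.0450. Replicate 3 was lowest at CSMD1, although it had more common regions genome-wide than replicate 2.

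DLG2 encodes a scaffold protein of synapses. It held 13, 1 and 6 common regions, and the ratios of 0.164, 0.0486 and 0.150 had a mean of 0.121 ± 0.0630 (SD, n = 3). CNTNAP2, a neurexin-like adhesion protein of neurons and the longest of the genes, held 32, 1 and 10 common regions. Its ratios of 0.416, 0.0562 and 0.251 were spread widely, with a mean of 0.241 ± 0.180 (SD, n = 3).

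In ascending order of the mean ratio the genes were LRP1B, DLG2, MACROD2, CSMD1, FHIT, IMMP2L, CNTNAP2 and WWOX. Neighbours in this order differed by between 0.00972 and 0.0478, less than the larger SD of the pair, except CNTNAP2 and WWOX, which differed by 0.211, more than the larger SD of 0.180. The order of the 7 lower genes is therefore not resolved by 3 replicates. Replicate 1 gave the highest ratio at 5 genes and replicate 2 at 3, and the lowest ratio came from replicate 3 at 5 genes and from replicate 2 at 3.

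The unit of counting changed the size of the depletion. For all EPIC2 regions, with or without a summit, the median ratio over the genes was 0.153 ± 0.0321 (SD, n = 3), close to that of common regions. For MACS2 summits it was 0.481, 0.505 and 0.491 in the 3 replicates, a mean of 0.492 ± 0.0119 (SD, n = 3). Mean summit ratios below 0.5 were found at 5 of the 8 genes, MACROD2, LRP1B, CSMD1, FHIT and DLG2, against 13.7% of the tiled windows.

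The widest difference between the mean summit and common region ratios was at IMMP2L. Its summit ratios were 0.549, 0.806 and 0.645, a mean of 0.667 ± 0.130 (SD, n = 3), where the common region ratios had a mean of 0.226 ± 0.153 (SD, n = 3). CNTNAP2 reached 0.822 in replicate 1 and 0.521 and 0.604 in the others. WWOX was the gene at which the measures were closest, with summit ratios of 0.636, 0.523 and 0.515. MACROD2 had the lowest mean, from summit ratios of 0.502, 0.225 and 0.385. At the other genes the summit ratios ranged from 0.304 (CSMD1, replicate 3) to 0.554 (DLG2, replicate 3).

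Set among windows of their own length on the same chromosome, the genes took different positions. None of the 27 windows of chromosome 20 had a mean common region ratio below that of MACROD2. Of the 125 windows of chromosome 2, 1 lay below LRP1B, and of the 66 windows of chromosome 8, 3 lay below CSMD1. CNTNAP2, DLG2, IMMP2L and FHIT had between 9.23% and 13.4% of windows below them. For WWOX the share rose to 27.5%. Counted by summits, IMMP2L was nearest to the middle of its windows, with 30.4% of them below it.

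**Figure D2:**
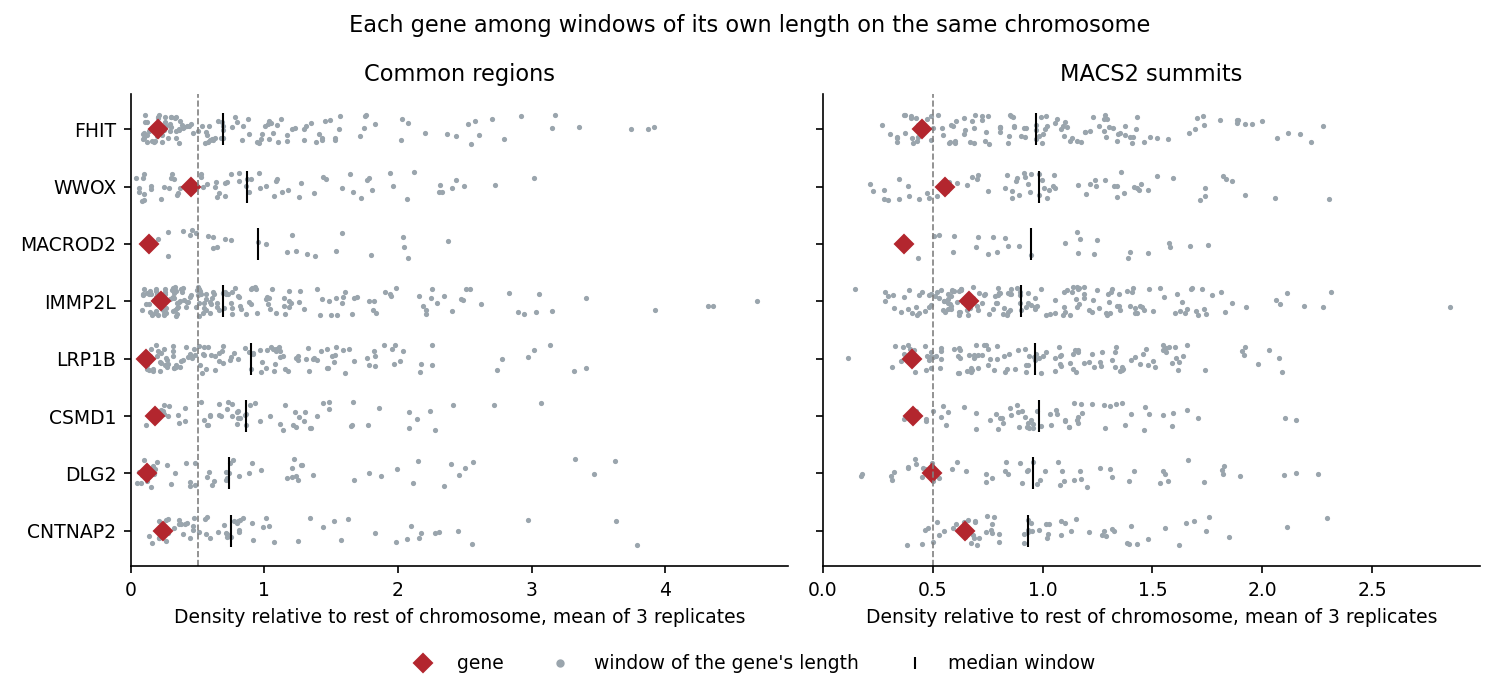
Mean density ratio over 3 replicates (x axis, no unit) of each gene (red diamond) and of windows of the gene's length tiled along the same chromosome (grey points, median as a black bar), for common regions on the left and summits on the right. All 8 diamonds lie left of the dashed line at 0.5 for common regions and 5 of 8 do so for summits.

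The surroundings of the genes fell into different patterns when 5 Mb on each side were taken as the comparison. Around MACROD2, IMMP2L, LRP1B and DLG2 the flanks themselves were sparse, with a common region density of between 0.372 ± 0.0813 (DLG2) and 0.526 ± 0.0227 (IMMP2L) relative to the remaining chromosome (SD, n = 3 each). CSMD1 had 0.514 ± 0.113 (SD, n = 3), but its flank includes a 1 Mb window without any call. Such windows were dropped from the rest and not from the flanks. This value is therefore too low, and the ratios of CSMD1 against its flanks are too high. Around FHIT, WWOX and CNTNAP2 the pooled density of both flanks was higher, with 0.893 ± 0.170, 1.09 ± 0.0733 and 1.40 ± 0.199 (SD, n = 3 each). The nearest tiled windows of FHIT, WWOX and CNTNAP2 differed by side. Their mean common region ratios were 0.570, 0.309 and 0.562 before the gene start and 2.71, 1.78 and 2.30 past the gene end. Against its flanks CNTNAP2 had ratios of 0.331, 0.0359 and 0.198, lower than against the chromosome, whereas DLG2 rose to 0.419, 0.159 and 0.317. Over the 8 genes the median ratio against the flanks was 0.321 ± 0.0958 (SD, n = 3), and every common region ratio still lay below 1. For summits the median against the flanks was 0.589 ± 0.0822 (SD, n = 3), with 23 of 24 ratios below 1 and a mean below 0.5 at 1 gene, FHIT. The exception was IMMP2L in replicate 2 at 1.22, within a mean of 0.892 ± 0.282 (SD, n = 3), and DLG2 had a mean of 0.837 ± 0.0702 (SD, n = 3).

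The study kept origins found in at least 2 of 3 replicates, so the common regions were merged over replicates and those held by 2 or more were called consensus origins. The study intersected the peaks of both callers, whereas point summits were used here. The consensus origins are therefore not the study's own set, and their number differs from the one it reports. The 8 genes held 21 of the 42075 consensus origins of the series. WWOX and CNTNAP2 held 6 each, MACROD2 and CSMD1 3 each, FHIT 2 and DLG2 1. IMMP2L and LRP1B held none, which allows ratios of up to 0.260 and 0.135 (3 counts), or up to 0.320 and 0.166 by the two-sided exact interval given for the other genes. Where there were any, the ratio of consensus origin density to the rest of the chromosome ran from 0.0306 (DLG2, interval 0.000775 to 0.171) to 0.232 (WWOX, interval 0.0849 to 0.505). Only origins wholly inside a gene were counted. At the starts of IMMP2L and CSMD1, overlapping common regions of replicates 1 and 3 together ran past the gene and were left out.

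No consensus origin in any of the genes was held by all 3 replicates, compared with 19.1% of consensus origins in the series. The 32.9% of tiled windows without such an origin give the background for this. Of the 21, 9 were shared by replicates 1 and 2, 11 by replicates 1 and 3 and only 1, in WWOX, by replicates 2 and 3. Replicate 1 thus carried the count, since 1 consensus origin was left without it, 11 without replicate 2 and 9 without replicate 3. In the series, replicates 1 and 2 alone shared 23.1% of consensus origins, replicates 1 and 3 alone 56.0% and replicates 2 and 3 alone only 1.81%.

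The consensus origins of the emptier genes were few enough to name, after their values had been seen. In FHIT they lay at chr3:60104001-60105600 and chr3:61179001-61181000, the latter 57.1 kb into the gene, both in replicates 1 and 2. The only one of DLG2 was chr11:85016601-85018000, held by replicates 1 and 3 and 321 kb from the start of the gene.

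Those of MACROD2 and CSMD1 were mostly shared by replicates 1 and 2. MACROD2 had chr20:14402401-14405000, with a best summit of 30.05 in replicate 1 and 15.6 in replicate 2 on the −log10 scale of the q-value, the highest value among the 21. Its others were chr20:14558001-14560200 (replicates 1 and 3) and chr20:15151601-15152400. The origins counted in CSMD1 were chr8:3534401-3535000, chr8:3951201-3952400 and chr8:4310801-4312800, with best summits between 14.2 and 16.2 in replicate 1 and between 6.92 and 11.3 in replicate 2.

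**Figure D3:**
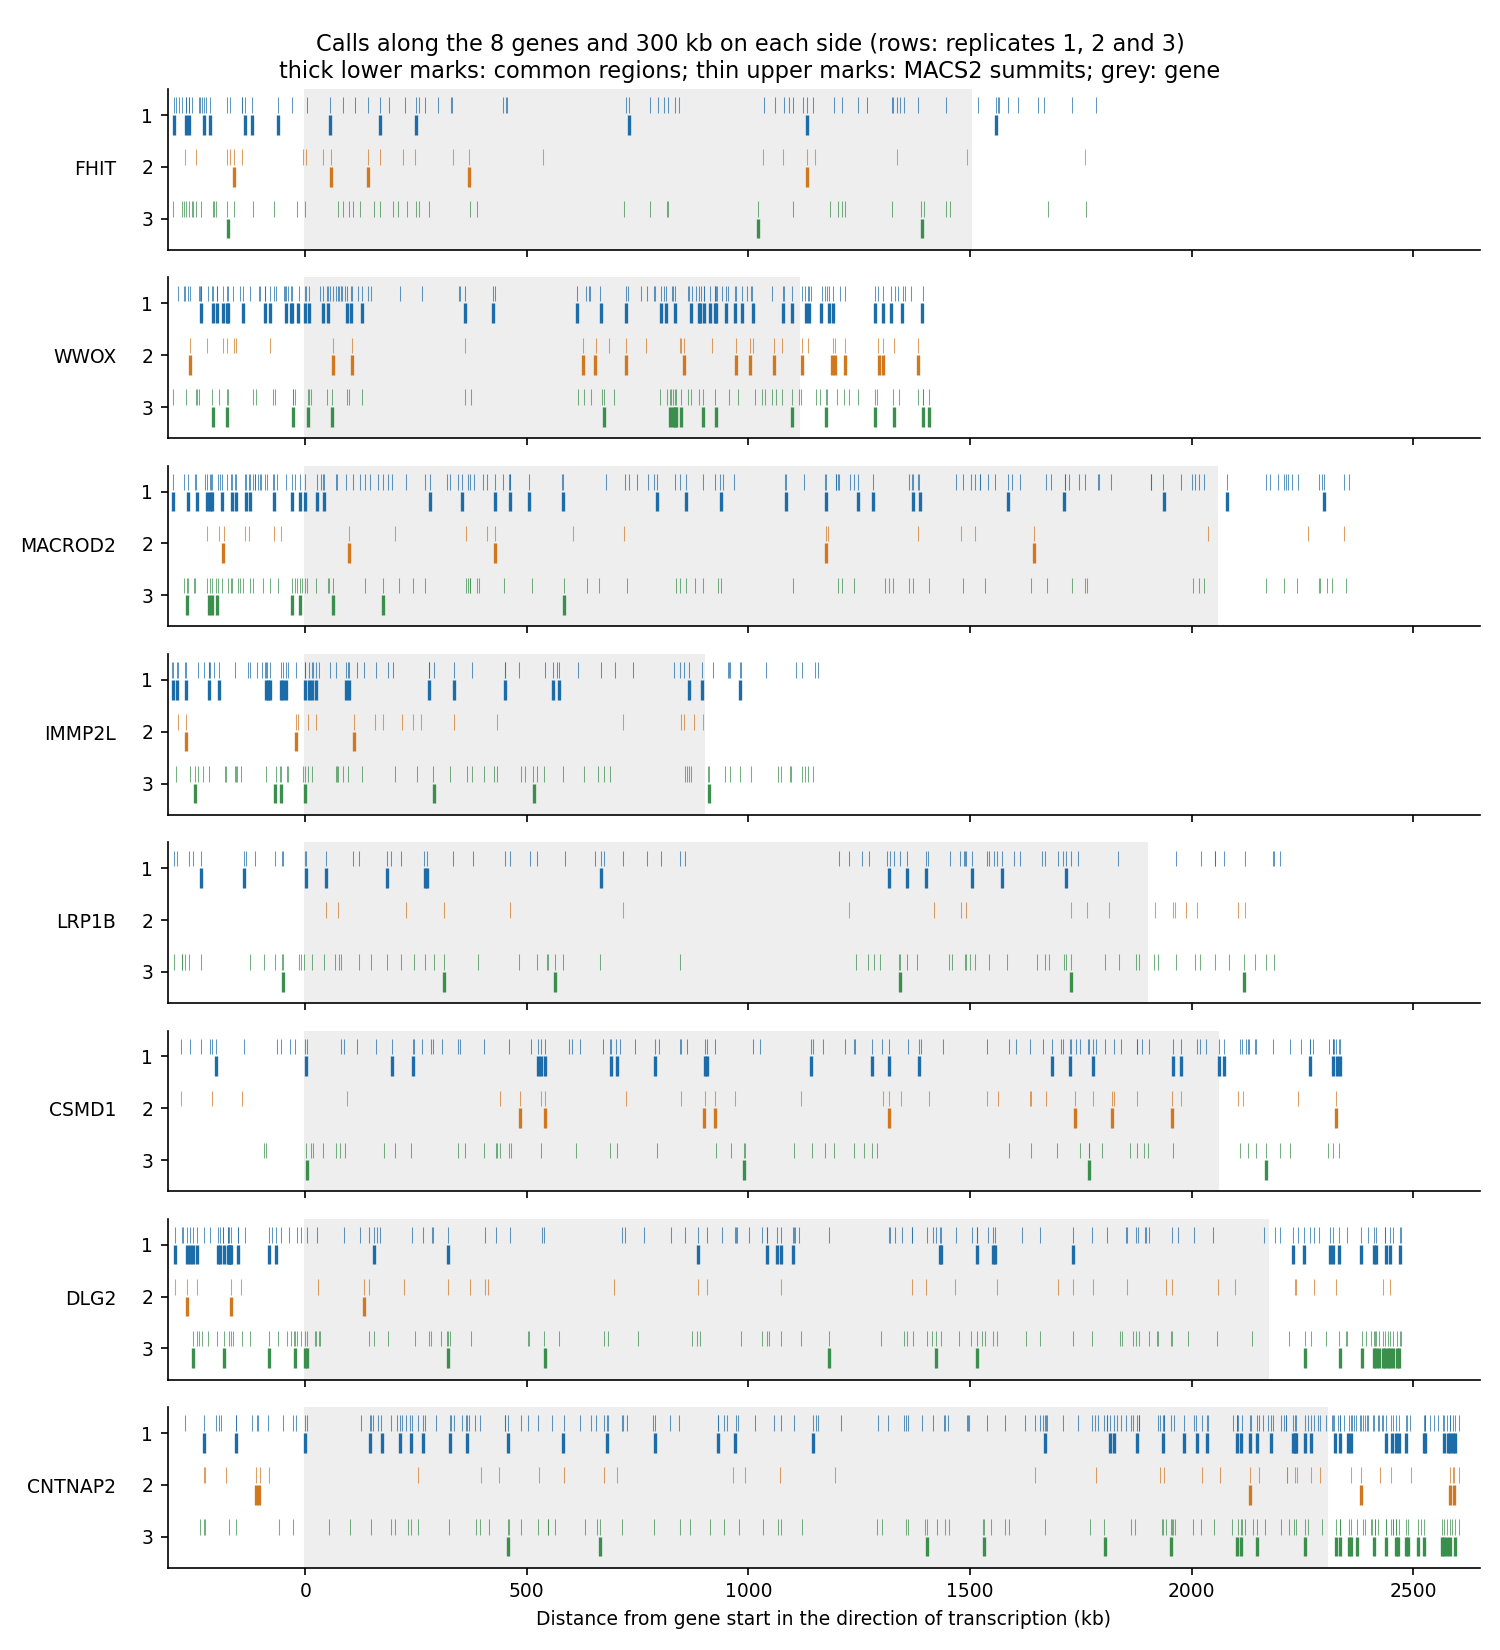
Common regions (thick marks) and MACS2 summits (thin marks) along each gene (grey) and 300 kb on each side, by distance from the gene start in the direction of transcription (x axis, kb), with 1 row per replicate. Summits run through most of each gene while common regions are sparse, and LRP1B, FHIT and WWOX show stretches of 348, 184 and 186 kb without a summit in any replicate.

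The gaps between calls were longer in the genes. Gap N50 is the length for which at least 50% of call-free bases lie in gaps at least that long. For a gene, only bases inside it were counted, but each gap kept its full length, also where it ran past the gene. The value can therefore exceed the gene, as the 3240 kb of LRP1B in replicate 2 did. Gaps of the chromosomes that hold a whole 1 Mb window without any call were left out of the rest and of the ranks. For common regions the ratio of gap N50 in the gene to that in the rest of the chromosome had a median of 3.49, 4.71 and 3.85 over the genes in replicates 1, 2 and 3, a mean of 4.02 ± 0.627 (SD, n = 3). It was above 1 at all 8 genes in each replicate.

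In FHIT the gap N50 was 424, 762 and 1194 kb, against 103, 402 and 251 kb on the rest of chromosome 3. MACROD2 had 140, 737 and 1881 kb against 42.8, 166 and 120 kb. The 1881 kb gap of MACROD2 in replicate 3 was the longest on chromosome 20 and spanned 71.6% of the gene. WWOX had the lowest mean ratio, with 67.2, 319 and 612 kb against 41, 173 and 137 kb.

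Replicate 2, the smallest, left whole genes almost unmarked. Its gap over LRP1B measured 3240 kb, held the gene entirely and was the longest on chromosome 2. Its gap of 2232 kb over CNTNAP2 covered 92.4% of the gene and was the longest on chromosome 7, and that of 2590 kb over DLG2 covered 93.8%. A gap of 1691 kb in that replicate covered 87.7% of IMMP2L. In replicate 1, the largest, the corresponding gaps were 649 kb in LRP1B, 523 kb in CNTNAP2, 564 kb in DLG2 and 291 kb in IMMP2L.

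**Figure D4:**
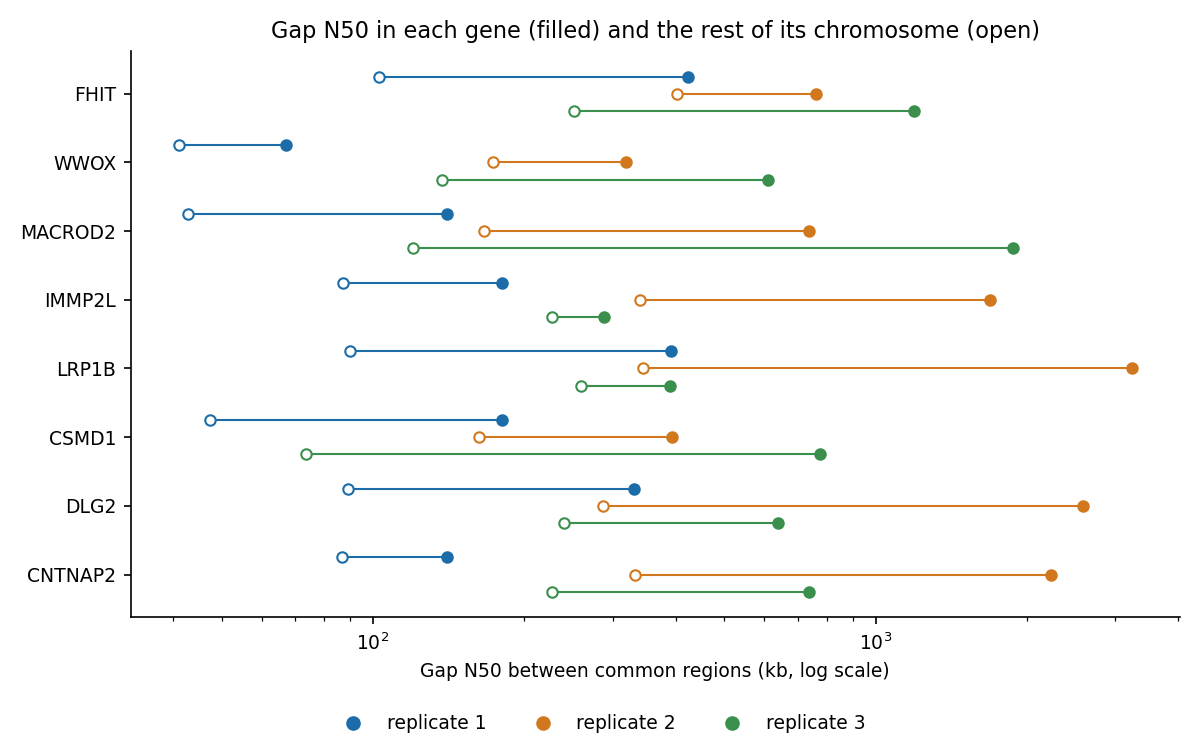
Gap N50 between common regions (x axis, kb, log scale) in each gene (filled points) and in the rest of its chromosome (open points), joined by a line for each replicate. Every filled point lies to the right of its open point.

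Some stretches of the genes had no common region in any of the replicates. The longest such stretch was 649 kb in LRP1B (chr2:141573201-142222200), the 4th longest on its chromosome of 9399, and it held 18 summits where the chromosome mean would give 93.9. In DLG2 it was 497 kb (chr11:83109001-83605800), of which 440 kb lay in the gene, and in FHIT 360 kb (chr3:60507401-60867400) with 8 summits where 51.1 would be the mean. CSMD1 had 301 kb (chr8:3166801-3467400) and IMMP2L 291 kb (chr7:110338601-110629200).

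CNTNAP2 had 255 kb (chr7:146960401-147215200), WWOX 229 kb (chr16:78262801-78492200) and MACROD2 222 kb (chr20:15690201-15911800). DLG2 kept 37 summits in its stretch against 75.0 at the chromosome mean, the highest share of the 8 genes. In WWOX 6 summits remained against 44.7. All 8 stretches were picked for holding no common region, which leaves out every summit inside an EPIC2 region of its replicate. The chromosome means count all summits, so part of each shortfall follows from the picking. How large that part is was not tested.

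Fewer places lacked both kinds of call. LRP1B had the longest stretch without a summit of any replicate, 348 kb at chr2:141685508-142033049, which also touched no EPIC2 region and would hold 50.3 summits at the mean of chromosome 2. It was the 7th longest of 34871 such gaps on that chromosome. FHIT had 184 kb at chr3:60517192-60701524, the 3rd longest of 27732, again with no EPIC2 region. WWOX had 186 kb at chr16:78560796-78746302, the 10th longest of 15691, touched by 1 EPIC2 region. The LRP1B stretch was picked for holding no summit, so the 50.3 gives a scale and is no test. The numbers at the chromosome mean assume that the DNA is present. Copy number was not analysed, so whether DNA was lost in these stretches was not tested.

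The other genes had shorter ones. They measured 118 kb in DLG2, 116 kb in MACROD2, 97.8 kb in CSMD1, 91.4 kb in IMMP2L and 81.3 kb in CNTNAP2. In that order they ranked 26th, 5th, 10th, 51st and 61st on their chromosomes. In a check chosen after seeing the data, the LRP1B stretch grew to 380 kb without replicate 1 and kept its length without replicate 2 or 3, and leaving out any 1 replicate lengthened that of FHIT to between 190 and 264 kb. That of MACROD2 grew to 240 kb without replicate 1. The median gap between summits of the pooled lists was 10.5 kb in LRP1B, 9.42 kb in FHIT and 4.10 kb in WWOX, against 3.62, 3.74 and 2.72 kb on the rest of their chromosomes.

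Summits in the genes mostly stood outside EPIC2 regions. Of all summits in the 8 genes, 27.3%, 18.5% and 12.6% lay in a region of their own replicate. The median difference from the rest of the chromosome was −31.3, −29.3 and −29.0 percentage points in replicates 1, 2 and 3, a mean of −29.9 ± 1.24 (SD, n = 3), and all 24 combinations of gene and replicate were below 0. EPIC2 regions also covered less of each gene than of the rest of its chromosome in every replicate, between 0 and 6.20% against between 2.88% and 21.3%, and the part of that coverage in the difference was not tested.

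At FHIT the share was 11.4%, 25.0% and 6.45%, against 49.2%, 35.3% and 35.8% on the rest of chromosome 3. MACROD2 fell from 64.8%, 47.4% and 48.4% on chromosome 20 to 24.5%, 28.6% and 6% in the gene. In LRP1B, 0 of 13 summits of replicate 2 lay in a region (exact Clopper-Pearson 95% interval up to 24.7%). WWOX in replicate 2 was the pair nearest to its chromosome, with 52.9% of 17 summits against 54.1%.

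The share of summits within 500 bases of a summit of another replicate was lower in the genes as well. The median difference was −12.6, −18.8 and −8.24 percentage points, a mean of −13.2 ± 5.31 (SD, n = 3), and 23 of 24 combinations lay below 0. The exception was MACROD2 in replicate 3, with 40% against 36.0%. FHIT had 22.7%, 25.0% and 22.6% of its summits found again, where the rest of its chromosome had 37.1%, 59.4% and 36.0%. The share moves with the number of summits nearby in the other replicates, which is itself lower in the genes, and the part of that density in the difference was not tested.

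**Figure D5:**
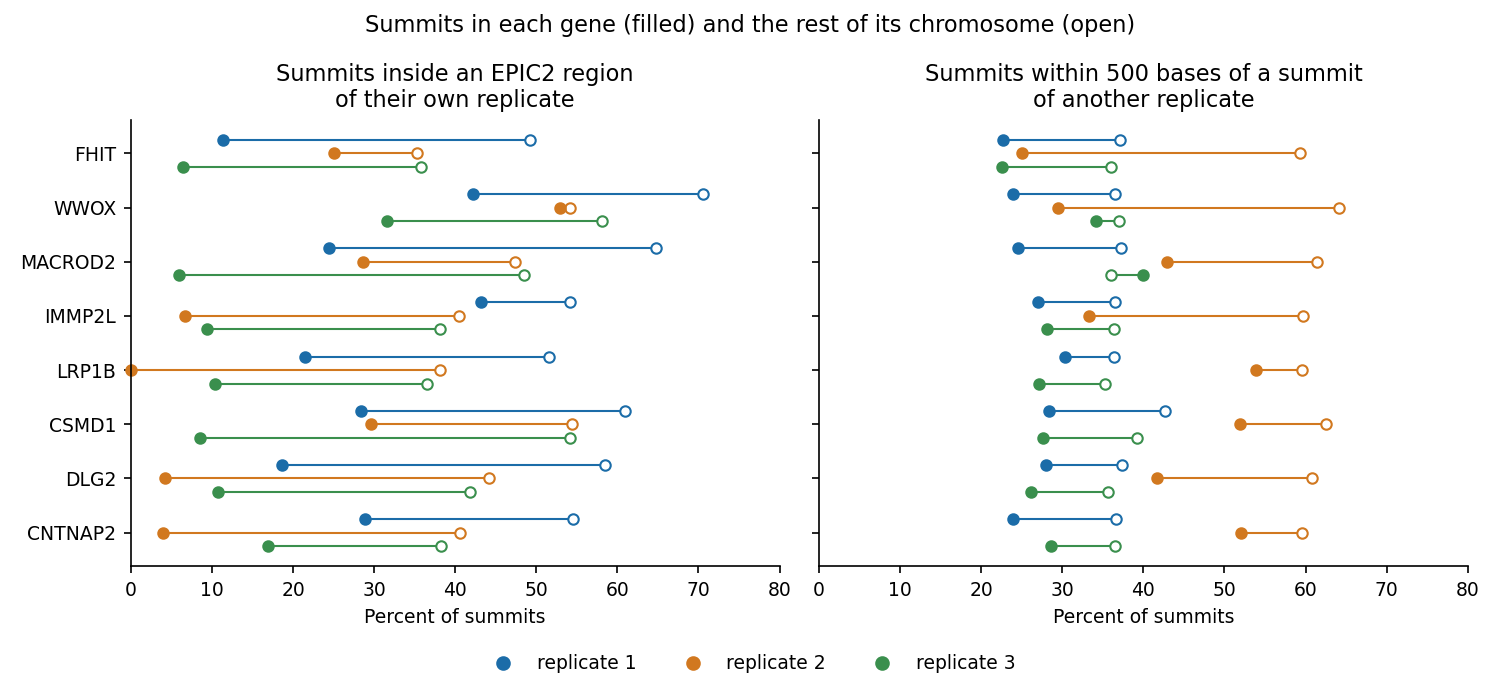
Percent of summits (x axis) that lay in an EPIC2 region of their own replicate (left) or within 500 bases of a summit of another replicate (right), for each gene (filled) and the rest of its chromosome (open), joined by a line for each replicate. Filled points lie left of open points in all 24 pairs on the left and in 23 of 24 on the right.

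The difference in summit strength was smaller than the spread between replicates. Ranked within each replicate from 0 to 100, the median summit score of the genes minus that of the rest was −4.14, −19.6 and 1.06 in replicates 1, 2 and 3, a mean of −7.55 ± 10.7 (SD, n = 3). It was below 0 at 7, 7 and 2 genes. The few common regions were weaker, with a median difference in EPIC2 score rank of −17.7, −10.8 and −30.6 from the rest, and lower in 22 of the 23 combinations that had any (mean difference −19.7 ± 10.1, SD, n = 3). They were also narrower in 21 of 23, with median differences of −800, −1300 and −1350 bases.

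Within the genes, calls were unevenly placed. Each gene was divided in 3 equal parts from its start, and these held 71, 51 and 87 common regions over all genes and replicates and 400, 282 and 461 summits. Since an origin can be called in several replicates, these sums count calls and not sites. The middle part held 26.4%, 25% and 17.1% of common regions in replicates 1, 2 and 3.

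Summed over replicates, LRP1B, FHIT and CNTNAP2 were emptiest in the middle, with 7, 1 and 8, 6, 1 and 4, and 12, 6 and 25 common regions from the first to the last part. WWOX had 11, 8 and 28, most of them toward its end. In CNTNAP2, 15 of 43 lay in the last of 10 equal parts, next to a flank denser than the chromosome. MACROD2 ran the other way, with 13, 9 and 5. DLG2 and CSMD1 had 6, 9 and 5 and 8, 12 and 10. The higher middle count of DLG2 came from replicate 1 (2, 7 and 4), as replicate 2 had 1, 0 and 0 and replicate 3 had 3, 2 and 1. At CSMD1, too, only replicate 1 had its highest count in the middle alone (5, 8 and 6), and summits did not peak there in either gene, with 51, 55 and 58 in DLG2 and 50, 49 and 56 in CSMD1. IMMP2L had 8, 5 and 2.

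Common regions at the starts of the genes came mainly from replicate 1. The study asked about origins at transcription start sites, so calls within 5 kb of each annotated start were counted. In replicate 1, 6 of 8 genes had a common region there, all but FHIT and DLG2, where 32.2% of 10 kb tiles of the same chromosomes touch one. Replicate 2 had none at 8 genes, where 10.4% of tiles do, and replicate 3 had 3 of 8, IMMP2L, CSMD1 and DLG2, where 23% do. In the genes as a whole, 10.9%, 2.29% and 3.22% of tiles touched a common region. An EPIC2 region lay at the start of 6, 1 and 5 genes in replicates 1, 2 and 3. A summit did so at 8, 1 and 6. No share of tiles was counted for either, so these counts are not set against a background. The rest of the chromosomes held 69.2 to 100, 19.5 to 30.2 and 53.9 to 75.2 summits per Mb in replicates 1, 2 and 3.

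CSMD1 and IMMP2L were the genes with a common region at the start in more than 1 replicate. At each of them the regions overlapped but together ran past the gene, so they are not among the consensus origins above. At CSMD1 the regions were chr8:4849201-4852800 in replicate 1, over the start, and chr8:4847601-4850600 in replicate 3, inside the gene.

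At IMMP2L the region covered the start in both replicates, at chr7:111202201-111203600 in replicate 1 and chr7:111201401-111204000 in replicate 3, with summits 85 and 203 bases into the gene. FHIT had no region at its start but 1 summit within 5 kb in each replicate, 4206, 975 and 320 bases into the gene. It was the only one of the 8 with a summit there in all 3, for which no background share was counted either.

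The sequences just before the starts are shown for the genes with any call, EPIC2 or MACS2, within 5 kb in at least 2 replicates, so that the base composition of these marked places can be seen. They are the 250 bases before the RefSeq start (build GRCh38.p14), since no hg19 sequence was used, and are printed 5′ to 3′ on the strand of the gene, with runs of at least 4 G or 4 C in capitals, a search for GGGG on both strands. The RefSeq start may differ from the one behind the hg19 coordinates. LRP1B and CSMD1 met the rule too and are not shown. At chr3:61251453-61251702 (− strand), chr16:78099404-78099653 (+), chr20:13995266-13995515 (+), chr7:111562493-111562742 (−) and chr11:85628374-85628623 (−) the sequences are
FHIT: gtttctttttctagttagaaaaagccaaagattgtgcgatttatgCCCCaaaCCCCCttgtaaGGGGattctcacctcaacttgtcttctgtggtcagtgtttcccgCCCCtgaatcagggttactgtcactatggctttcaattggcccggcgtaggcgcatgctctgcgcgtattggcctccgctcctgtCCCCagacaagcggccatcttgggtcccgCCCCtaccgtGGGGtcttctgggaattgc
WWOX: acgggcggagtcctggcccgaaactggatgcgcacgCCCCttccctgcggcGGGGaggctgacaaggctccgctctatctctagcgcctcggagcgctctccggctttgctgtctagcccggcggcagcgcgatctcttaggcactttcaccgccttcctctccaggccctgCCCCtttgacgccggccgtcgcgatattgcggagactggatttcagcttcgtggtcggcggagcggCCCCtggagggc
MACROD2: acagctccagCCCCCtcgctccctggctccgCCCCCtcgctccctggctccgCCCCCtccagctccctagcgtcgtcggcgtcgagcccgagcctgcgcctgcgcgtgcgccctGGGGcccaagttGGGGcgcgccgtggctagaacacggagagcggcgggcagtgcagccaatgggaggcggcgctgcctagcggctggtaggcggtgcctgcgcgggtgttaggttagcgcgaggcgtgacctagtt
IMMP2L: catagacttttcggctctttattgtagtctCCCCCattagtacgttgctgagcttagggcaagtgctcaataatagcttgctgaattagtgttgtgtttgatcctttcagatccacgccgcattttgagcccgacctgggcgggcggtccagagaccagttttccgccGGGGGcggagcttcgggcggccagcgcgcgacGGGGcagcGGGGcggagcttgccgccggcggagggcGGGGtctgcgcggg
DLG2: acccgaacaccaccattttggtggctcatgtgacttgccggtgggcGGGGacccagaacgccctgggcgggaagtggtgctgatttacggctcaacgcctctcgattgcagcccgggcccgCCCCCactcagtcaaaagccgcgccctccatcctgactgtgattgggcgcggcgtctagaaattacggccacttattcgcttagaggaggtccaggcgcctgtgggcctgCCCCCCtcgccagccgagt

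All 5 held such runs, 7 in FHIT, 4 in WWOX, 5 in MACROD2, 5 in IMMP2L and 3 in DLG2. This describes promoters in general, as 87.1% of 35116 RefSeq promoters hold at least 1 within the same 250 bases. G and C made up 54.0% of the FHIT sequence, 67.6% of WWOX, 73.2% of MACROD2, 61.6% of IMMP2L and 64.0% of DLG2. FHIT was the one of the 5 without an EPIC2 region near its start in any replicate. Whether base composition goes with the calls was not tested.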

How the data were processed

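SNS-seq of untreated HCT116 cells was analysed from the processed lists of 3 replicates. By their methods, the authors mapped the reads with Bowtie2 2.3.4.2 (hg19), took out duplicates with Picard 2.18.17 and called each replicate with MACS2 2.1.0.20151222 (q-value 0.1) and EPIC2 (FDR 0.1). No control library is named in the sources used here. Each deposited EPIC2 region has a score of unstated kind, which served only for ranks within its list. Each deposited MACS2 summit has a value read as −log10 of q.

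The 8 genes, their groupings and the measures were chosen with earlier results of these data known. 1 further gene of the set is not reported here. Coordinates were left in hg19. A call belonged to a gene if it lay wholly inside it. IMMP2L and CNTNAP2 share chromosome 7, so each lies in the rest of the other. The rest excluded 1 Mb windows without any call, which the flanks kept. Tiled windows left out the gene and had at least 90% of their bases in the span. The flank past the end of CSMD1 was cut short by the end of chromosome 8. Gene strands came from GENCODE and RefSeq on GRCh38. 6 genes had RefSeq promoters, and the one with the farthest upstream start was taken. Named regions were the longest stretch per gene without a common region of any replicate, and consensus origins of all 3 replicates, of which there were none. The consensus origins of 2 replicates that the text names were chosen after their values were seen. Alternatives were a stricter q-value (0.01), EPIC2 score, overlap, span, flanks, equal numbers and leaving out replicates. Functions were tested on simulated lists. Python 3.11.15, numpy 2.4.6, scipy 1.17.1 and matplotlib 3.10.9 were used.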

Additional observations from a re-analysis of the deposited data

How the results depend on the processing

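Every density ratio of the 8 genes, averaged over replicates, stayed below 1 under the 11 alternatives run for each, between 0.0266 and 0.667. The median over the genes rose from 0.161 to 0.321 against flanks of 5 Mb and to 0.492 for summits, and dropped to 0.0874 with equal numbers of EPIC2 regions, to 0.0696 with the upper 50% of EPIC2 scores and, in a count chosen after seeing the data, to 0.0678 for consensus origins. Leaving out 1 replicate gave 0.138 to 0.177. The number of genes below 0.5 changed from 8 to 5 for summits, and to 7, without WWOX, with the span from first to last call or without replicate 3. Consensus origins in the genes fell from 21 to 9 with a reciprocal overlap of 50%, to 0 when all 3 replicates were asked for, and to between 1 and 11 when 1 replicate was left out. The ratio of gap N50 went from 4.02 to 2.51 against the flanks and 2.15 for summits, with 3.67 to 4.28 when 1 replicate was left out. The difference in the share of summits inside an EPIC2 region went from −29.9 to −18.3 points against the flanks and −23.3 with the upper 50% of scores. That in the share found again lay between −13.0 and −7.07 points when 1 replicate was left out. The share of genes with a common region at the start, 37.5% over replicates, was 18.75% without replicate 1 and 56.25% without replicate 2. Of the 88 density ratios of single genes under these alternatives, 72 moved by at most the SD between replicates. The summit score difference went from −7.55 to −19.7 with the EPIC2 score of common regions and otherwise moved by less than its SD, and the causes were not tested. There are no groups to pair, since all samples belong to 1 group, and gene and rest were compared within each replicate. Read depth is unknown, and the exact sign-flip test cannot go below 0.25 with 3 replicates.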
